A study of Mus musculus with 24 samples.

Results

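The comparison described here asked whether the p53R172H allele changes how small intestinal (SI) organoids respond to BRAFV600E, and it used 8 of the 24 libraries in the series, chosen by their labels. These were the BRAF and BRAFp53 organoids, each before (off) and after (on) recombination, with 2 libraries per group. Both cultures were epithelial organoids from the proximal small intestine of C57BL/6N mice and carried Villin::CreERT2, a tamoxifen-activated Cre recombinase under a promoter of the intestinal epithelium. BRAF organoids carried the Braf floxV600E allele, which makes wild-type BRAF until Cre acts and BRAFV600E afterwards. BRAFp53 organoids carried in addition Trp53 LSL-R172H, in which a stop cassette keeps the p53R172H allele silent until Cre removes it, so that the off libraries of this culture had 1 expressed Trp53 allele and the on libraries had a wild-type and a mutant one. On cultures received 0.5 µM 4-hydroxytamoxifen for 24 h, off cultures received ethanol, and RNA of all groups was collected on day 8. Each genotype was 1 donor culture, so the p-values below measure the spread between libraries of a culture and not between mice. A difference between the BRAF and BRAFp53 cultures cannot be told apart from a difference between their donors, whose sex markers also differed.

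BRAF is a kinase that relays growth factor signals through MEK to ERK, and BRAFV600E signals without that input, while negative feedback genes such as Dusp6 and Spry4 rise with pathway activity. p53 is a transcription factor that halts the cell cycle or triggers cell death in stressed cells, in part through Cdkn1a, and R172H is a missense change in its DNA-binding domain. In the small intestine, stem cells at the crypt base, kept by Wnt signals from neighboring Paneth cells, give rise to dividing progenitors and then to absorptive enterocytes, mucus-secreting goblet cells and rarer cell types. Because the RNA came from whole cultures, fewer cells of a type and less RNA per cell cannot be told apart.

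Each response was the log2 difference of on minus off within a culture. The interaction was the BRAFp53 response minus the BRAF response, which equals the difference between the cultures (BRAFp53 minus BRAF) in the on state minus that in the off state. A positive interaction therefore means a higher response in BRAFp53 organoids, and it can come from either state, so both are given. Levels are CPM, counts scaled to a common library size with trimmed mean of M-values factors, and a call means a Benjamini-Hochberg adjusted p under 0.05 over all 16856 genes tested with edgeR's quasi-likelihood test.

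The 8 libraries held 44350747 to 65613832 counts and detected 19250 to 20456 genes. Replicates correlated at r = 0.9764 to 0.9812 across genes on the log2 CPM scale, and the detection floor of 3 counts lay at 0.0457 to 0.0774 CPM. Epithelial identity was clear in every library: Epcam, an epithelial adhesion molecule, ranged from 363.3 to 573.9 CPM, and Gata4, a transcription factor of the proximal intestine, from 72.88 to 95.29 CPM. Of 23 stromal, muscle, endothelial and immune markers 8 passed the filter on low counts, and their summed level was 30.56 to 35.58 CPM in BRAF off, 49.58 to 52.75 in BRAF on, 17.36 to 21.16 in BRAFp53 off and 24.37 to 27.29 in BRAFp53 on. Most of that sum was Lyve1 and Itgam, 4 of the 23 markers were at 0 counts in all 8 libraries, and the edgeR interaction called 0 of the 8 (2 at an unadjusted p under 0.05, 0 by DESeq2 or limma-voom). Their part in the results was not tested.

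The first BRAF on library carried transcripts that its own culture lacked. Of 5 transcripts at or below 0.5 CPM in both BRAF off libraries and at or above 5 CPM in all 4 BRAFp53 libraries (Cmtm7, G0s2, Gm4788, Mmp14 and Xist), all 5 exceeded 0.5 CPM in BRAF on replicate 1, with a median of 1.78 CPM, but 1 of 5 did in BRAF on replicate 2, with a median of 0.206 CPM. Xist, the RNA that silences an X chromosome in female cells, measured 0.253 and 0.4375 CPM in BRAF off, 15.43 and 0.2065 in BRAF on, 150.2 and 137.4 in BRAFp53 off and 111.2 and 135.4 in BRAFp53 on. Against the BRAFp53 on libraries, the median of these 5 transcripts in BRAF on replicate 1 came to 12.7%. In the converse set of 6 transcripts (Ddx3y, Eif2s3y, Kdm5d, Osr2, Slc5a8 and Uty), 0 exceeded 0.5 CPM in either BRAFp53 on library. Reg1, a secreted lectin, differed between the BRAF on replicates by the same ordering, with 768.7 CPM in the first and 11.38 in the second, against 24.35 and 16.46 in BRAF off and 514.8 to 6277 in the BRAFp53 libraries. The main counts of interaction calls below are therefore given with and without BRAF on replicate 1. The source of these transcripts was not tested.

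**Figure D1:**
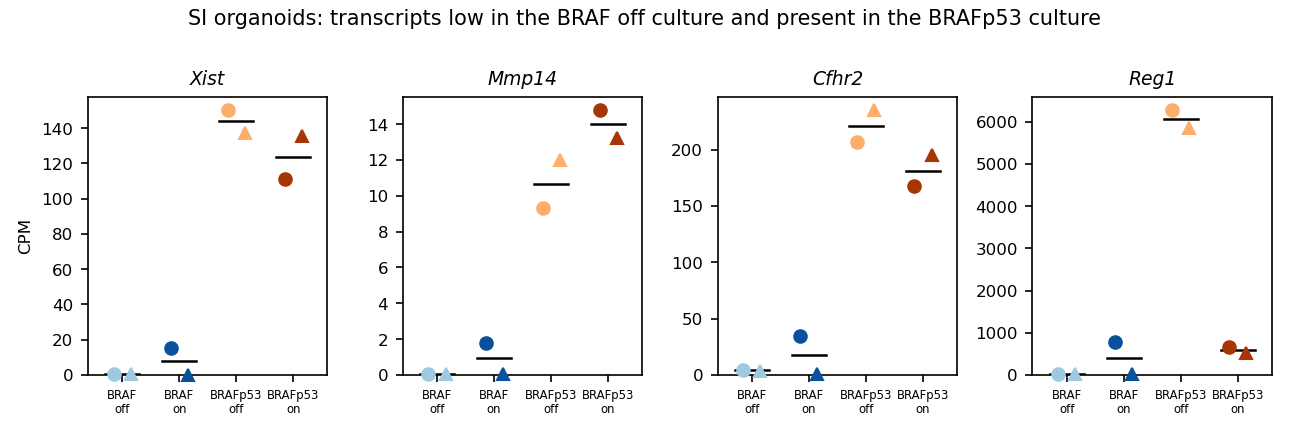
Levels of Xist, Mmp14, Cfhr2 and Reg1 (CPM, linear axis) in the 8 SI libraries by group, with a circle for replicate 1, a triangle for replicate 2 and a line at the group mean. In each panel BRAF on replicate 1 lies above BRAF on replicate 2, for Xist at 15.43 against 0.2065 CPM and for Reg1 at 768.7 against 11.38 CPM.

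Trp53 (GRCm38 chromosome 11, 69580359 to 69591873), the altered gene, moved in opposite directions in the cultures. It measured 244 and 258.4 CPM in BRAF off and 183.2 and 144.7 in BRAF on, against 136.3 and 140.8 in BRAFp53 off and 224.3 and 173.4 in BRAFp53 on. All BRAF off libraries lay above all BRAFp53 off libraries, whereas the on libraries of the cultures overlapped. The BRAF response was -0.62 and the BRAFp53 response 0.52 on the log2 scale, an interaction of 1.14 (SE 0.19, adjusted p = 0.00299) that was called under all 16 alternatives tried and was 1.31 without BRAF on replicate 1. The off-state difference was -0.86 (adjusted p = 0.00142). By design the BRAFp53 off libraries had 1 expressed Trp53 allele and recombination restores the other, so the design itself favors a positive interaction for this gene. Braf (chromosome 6, 39603237 to 39725463) did not differ in its response beyond the replicate spread, with 10.73 and 13.25 CPM in BRAF off, 17.97 and 16.08 in BRAF on, 12.69 and 15.82 in BRAFp53 off and 20.24 and 16.94 in BRAFp53 on (interaction -0.12, SE 0.275, adjusted p = 0.852).

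Fewer genes responded to BRAFV600E when p53R172H was recombined with it. The BRAF arm called 5345 genes (31.7% of those tested), 2948 rising (17.5%) and 2397 falling (14.2%), and the BRAFp53 arm called 1941 (11.5%), 1177 rising (6.98%) and 764 falling (4.53%). The BRAFp53 count was 887 without BRAFp53 on replicate 2, 1031 without BRAFp53 off replicate 2 and 1063 without BRAFp53 off replicate 1. The interaction itself called 1383 genes (8.20%), of which 325 (1.93%) responded higher and 1058 (6.28%) lower in BRAFp53 than in BRAF organoids. The median interaction over all genes tested was 0.0291 on the log2 scale. Of the 1058 lower genes, 933 had risen in the BRAF arm, and by their fitted values 484 (45.7%) moved in opposite directions in the arms, 535 (50.6%) moved the same way but less in BRAFp53 and 39 (3.69%) moved further. Of the 325 higher genes, 249 had fallen in the BRAF arm, 188 (57.8%) moved in opposite directions, 107 (32.9%) moved less in BRAFp53 and 30 (9.23%) moved further. Without BRAF on replicate 1 most called genes moved the same way but less in BRAFp53, 567 of 934 higher genes (60.7%, with 338 opposite) and 685 of 1194 lower genes (57.4%, with 477 opposite). Both arms were called, in opposite directions, for 68 of the lower and 12 of the higher genes (64 and 16 without BRAF on replicate 1), and the 68 included the enterocyte enzymes Anpep, Lct, Enpep and Dpp4.

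The difference between the cultures in the on state was the larger part of the interaction for 734 (69.4%) of the lower and 212 (65.2%) of the higher genes, and without BRAF on replicate 1 for 902 (75.5%) and 829 (88.8%). Without BRAF on replicate 1 the interaction called 2128 of 18009 genes (11.8%), 934 higher (5.19%) and 1194 lower (6.63%), and 1242 genes were called by both fits, all in the same direction. Other single libraries lowered the count: it was 634 without BRAF off replicate 2, 597 without BRAFp53 off replicate 1, 763 without BRAFp53 on replicate 2 and 920 without BRAFp53 on replicate 1. In the BRAF arm, 3959 of the 5345 called genes (74.1%) had BRAF on replicate 1 nearer to the off mean than replicate 2, and in the BRAFp53 arm 1341 of 1941 (69.1%) had their first on library nearer.

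**Figure D2:**
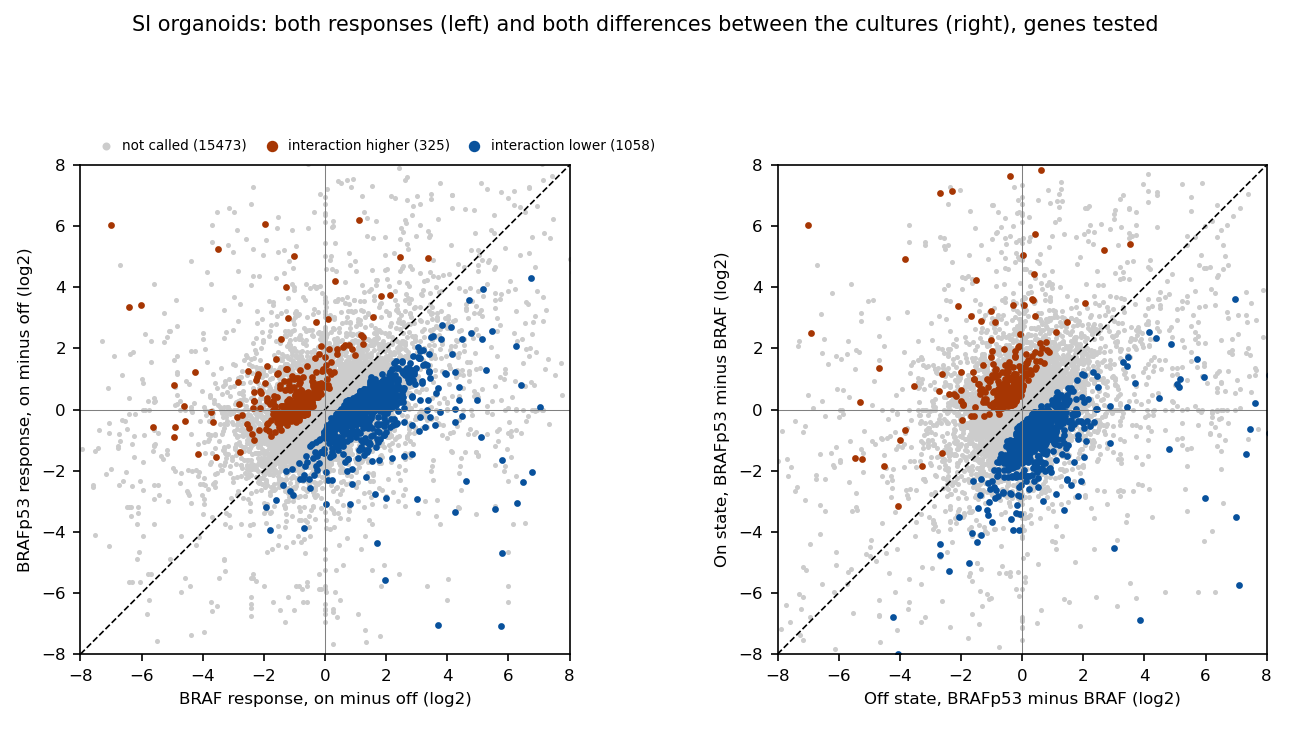
Each point is 1 of 16856 genes. The left panel sets the BRAFp53 response against the BRAF response and the right panel the on-state against the off-state difference (BRAFp53 minus BRAF), all as log2 values, with the 325 genes called higher in the interaction in red, the 1058 called lower in blue and the others in grey. Blue points gather at positive BRAF responses below the diagonal, and red points at negative BRAF responses above it. The axes stop at 8 log2 units on either side, which leaves out 29 genes on the left and 45 on the right.

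Enterocyte genes held more interaction calls than any other list. Of 43 brush border hydrolases, nutrient carriers and lipoprotein genes, all of which were tested, the interaction called 32 lower and 0 higher, with a median of -1.31. Over all genes 6.28% were called lower and 1.93% higher. The BRAF arm called 39 of the 43 rising and 1 falling (median 1.77), whereas the BRAFp53 arm called 17 rising and 7 falling (median 0.14). In 37 of 43 genes every BRAFp53 on-off difference lay below every BRAF one, an ordering seen in 19.7% of all genes. Summed over the list, the level went from 35950 and 28460 CPM to 87750 and 92950 in BRAF organoids, and from 48950 and 42040 to 58570 and 58460 in BRAFp53 organoids. Without BRAF on replicate 1 the interaction called 32 lower and 1 higher (Cps1, which makes carbamoyl phosphate for citrulline, at 0.86 against 0.12 with all libraries), with a median of -1.35.

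Anpep (aminopeptidase N, chromosome 7, 79821803 to 79861059), a brush border peptidase, had the largest called difference in this list. It measured 312.2 and 263 CPM in BRAF off, 2501 and 3021 in BRAF on, 696.5 and 539.7 in BRAFp53 off and 418.6 and 403.6 in BRAFp53 on. The BRAF on libraries stood far above the other 6, and the BRAFp53 on libraries lay below their own off libraries. Anpep rose 9.6-fold in the BRAF arm (3.26 on the log2 scale) and fell by 0.59 on the log2 scale in the BRAFp53 arm (adjusted p = 0.0206), an interaction of -3.85 (SE 0.215, adjusted p = 2.15e-06) that was -3.99 without BRAF on replicate 1.

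Lct (lactase, chromosome 1, 128284756 to 128328318) measured 67.18 and 49.96 CPM in BRAF off and 103.3 and 111 in BRAF on, but 16.83 and 18.44 in BRAFp53 off and 3.724 and 2.862 in BRAFp53 on. The BRAFp53 libraries lay below the BRAF libraries in both states and the on libraries lay lowest. The interaction was -3.30 (SE 0.228, adjusted p = 1.16e-05), from a BRAFp53 response of -2.43 and a BRAF response of 0.87, with an on-state difference of -5.03 and an off-state one of -1.73. The promoter of Lct is printed because CDX factors, the homeodomain regulators of intestinal identity, are known to bind it. The 250 bases before its start in RefSeq (GRCm38.p6, chr1:128328319-128328568, minus strand) hold 1 match to the motif TTTATG, searched on both strands and present on this strand as its complement in capitals, with its first base 31 bases before the start.
Lct: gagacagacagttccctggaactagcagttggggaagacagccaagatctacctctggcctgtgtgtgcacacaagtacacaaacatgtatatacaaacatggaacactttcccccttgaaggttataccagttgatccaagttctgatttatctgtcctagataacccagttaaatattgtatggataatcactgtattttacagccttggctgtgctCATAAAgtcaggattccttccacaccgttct
TTTATG occurred in the same window of 12.4% of the 27025 genes with a RefSeq promoter and of 4 of 37 enterocyte genes (10.8%), namely Fabp1, Lct, Sis and Tmigd1. A match describes letters, and whether CDX factors bind the marked stretch was not tested. The CDX genes themselves did not pass the interaction test (Cdx2 -0.03, adjusted p = 0.971).

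Enpep (glutamyl aminopeptidase), which trims acidic residues from peptides, measured 199.3 and 151.3 CPM in BRAF off, 434.4 and 588.1 in BRAF on, 154.1 and 119.5 in BRAFp53 off and 42.47 and 42.59 in BRAFp53 on. Here the off libraries overlapped between the cultures, and the on libraries moved apart in opposite directions (interaction -3.23, SE 0.249, adjusted p = 2.19e-05). Slc15a1 (PEPT1), the proton-coupled peptide carrier, rose in both cultures, from 10.37 and 12.1 to 184.6 and 244.2 CPM in BRAF and from 33.7 and 28.88 to 67.76 and 80.07 in BRAFp53. Its BRAFp53 off libraries lay above the BRAF ones and its on libraries below, and the response differed by -3.01 (SE 0.27, adjusted p = 4.68e-05).

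Smaller called differences included a disaccharidase and carriers of lipid. Sis (sucrase-isomaltase) measured 3096 and 2369 CPM in BRAF off, 5487 and 6332 in BRAF on, 2457 and 2268 in BRAFp53 off and 2224 and 2174 in BRAFp53 on, with both BRAF on libraries above the other 6 (interaction -1.22, SE 0.216, adjusted p = 0.0044). Fabp2, a fatty acid carrier of enterocytes, went from 1318 and 1026 to 5708 and 5929 CPM in BRAF but from 2515 and 2374 to 2673 and 2708 in BRAFp53 organoids (interaction -2.17, SE 0.178, adjusted p = 2.75e-05). Apoa1, an apolipoprotein, reached 16810 and 19970 CPM in BRAF on and 5863 and 5992 in BRAFp53 on (interaction -1.86, adjusted p = 5.57e-05).

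Some enterocyte genes did not follow. The cholesterol and plant sterol exporter subunits Abcg5 and Abcg8 rose in both arms, with interactions of 0.02 (adjusted p = 0.982) and -0.10 (adjusted p = 0.84). Alpi, intestinal alkaline phosphatase, had an interaction of -0.47 (adjusted p = 0.496) and Fabp1 one of -0.71 (adjusted p = 0.0935), and neither was called. Vil1, the gene whose promoter drives the Cre in all 8 libraries, was called lower, at 521.6 and 489.6 CPM in BRAF off, 1572 and 1757 in BRAF on, 605.2 and 518.1 in BRAFp53 off and 771.7 and 770.2 in BRAFp53 on (interaction -1.26, SE 0.144, adjusted p = 0.000225). Vil1 and Dpp4 share exon sequence with an antisense gene, and since the strand setting of the counting is not given in the sources used here, reads of the partners cannot be told apart.

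Xenobiotic metabolism genes behaved alike, with 55.3% called in the interaction beside 8.20% of all genes. Of 47 cytochrome P450s, conjugating enzymes, esterases and efflux pumps, the interaction called 26 lower and 0 higher (median -0.96), and 30 lower and 0 higher without BRAF on replicate 1 (median -1.0). The BRAF arm called 32 rising and 3 falling, the BRAFp53 arm 13 rising and 9 falling. Cyp4b1, a P450 that oxidizes fatty acids and aromatic amines, measured 106.6 and 91.84 CPM in BRAF off, 811.6 and 993 in BRAF on, 121.3 and 96.61 in BRAFp53 off and 185.5 and 212.4 in BRAFp53 on. The off libraries of the cultures overlapped and the on libraries did not (interaction -2.32, SE 0.23, adjusted p = 8.91e-05). Cyp4f14, a P450 of the same fatty acid family, differed by -2.14 (adjusted p = 0.000113) and the carboxylesterase Ces2b by -2.26 (adjusted p = 0.00365). Of the nuclear receptors that sense foreign compounds, Nr1i3 (CAR) was called lower (-1.44, adjusted p = 0.00213), although it overlaps an antisense gene, and Nr1i2 (PXR) had a value of 0.21 (adjusted p = 0.602).

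Beyond these lists, the genes with the most negative interactions among well-expressed genes included further carriers and enzymes. Fabp6, the ileal bile acid-binding protein, rose from 2.024 and 2.252 to 37.58 and 68.29 CPM in BRAF organoids, a 24.7-fold rise, but was at 0.1239 and 0.1424 CPM in BRAFp53 off and at 1 and 2 counts in BRAFp53 on. It passed the interaction test (adjusted p = 0.000615), and the size of its fitted difference depends on the prior count, because the BRAFp53 on libraries lay below the detection floor. Sgk1, a kinase that regulates sodium transport, went from 5.375 and 5.866 to 39.12 and 41.04 CPM in BRAF and from 4.672 and 5.962 to 3.452 and 4.095 in BRAFp53 (interaction -3.33, SE 0.269, adjusted p = 2.75e-05). Its BRAF on libraries lay far above the other 6. Npl, which breaks down sialic acid, went from 3.162 and 3.484 to 36.08 and 35.9 CPM in BRAF and stayed between 4.16 and 5.504 CPM in BRAFp53 organoids (interaction -3.69, adjusted p = 0.000124). The water and glycerol channel Aqp3 and the amino acid carrier family member Slc7a15 had interactions of -3.10 and -3.06. Flvcr2, a carrier of the major facilitator family, rose in both cultures, from 0.4216 and 1.069 to 27.1 and 32.03 CPM in BRAF and from 6.389 and 4.787 to 14.48 and 13.12 in BRAFp53 (interaction -3.96, SE 0.553, adjusted p = 0.000937). Pdzk1, a scaffold of brush border carriers that overlaps an antisense gene, measured 70.6 and 57.06 CPM in BRAF on and 5.571 to 12.08 CPM in the other 6 libraries (interaction -2.97, SE 0.404, adjusted p = 0.000771).

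Interferon, glycolysis and cholesterol genes had fewer calls, all of them for a lower response in BRAFp53 organoids, and most members were not called. The calls were 17.6% of the interferon, 13% of the glycolysis and 19.4% of the cholesterol genes tested, beside 6.28% of all genes called lower. Of 34 tested interferon response and antigen presentation genes 6 were called lower and 0 higher (median -0.65), with the same counts without BRAF on replicate 1 but 3 lower without BRAF on replicate 2, BRAF off replicate 2 or BRAFp53 off replicate 1. Irf7, a transcription factor that amplifies interferon signaling and that overlaps an antisense gene, measured 15.43 and 10.76 CPM in BRAF off, 65.15 and 70.25 in BRAF on, 16.12 and 15.14 in BRAFp53 off and 29.47 and 23.67 in BRAFp53 on (interaction -1.61, SE 0.257, adjusted p = 0.00223). The class I presentation genes B2m and H2-K1 differed by -1.0 (adjusted p = 0.00492) and -0.91 (adjusted p = 0.00306). Of 23 glycolytic genes 3 were called lower (median -0.47), beside 6.28% of all genes, 11 with DESeq2, 10 without a filter on low counts, 7 with either replicate block and 7 without BRAF on replicate 1 or BRAFp53 off replicate 2, or 2 without BRAF off replicate 2, BRAFp53 on replicate 2 or BRAFp53 off replicate 1. Ldha, which makes lactate, went from 3374 and 3120 to 6883 and 6940 CPM in BRAF and from 4916 and 4395 to 6379 and 5705 in BRAFp53 (interaction -0.71, adjusted p = 0.00513), with the BRAFp53 off libraries above the BRAF ones. Of 31 cholesterol synthesis genes 6 were called lower (median -0.43) and 10 without BRAF on replicate 1, with 22 rising in the BRAF and 6 in the BRAFp53 arm. The cholesterol count was 13 with DESeq2, 2 over the 8 BRAF and BRAFp53 libraries alone and 1 without any of BRAF on replicate 2, BRAF off replicate 2, BRAFp53 on replicate 2 or BRAFp53 off replicate 1.

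Paneth cell genes ran the other way, with 63.6% called in the interaction beside 8.20% of all genes. Of 22 tested members of a 25-gene list of defensins, lysozyme and other Paneth products, the interaction called 14 higher and 0 lower, with a median of 2.43, and 12 higher and 0 lower without BRAF on replicate 1 (median 2.34). The BRAF arm called 14 falling and 1 rising (Pnliprp2, a lipase), and the BRAFp53 arm 6 rising and 1 falling. Much of this lay in the off state, where 16 of 22 were lower and 1 higher in BRAFp53 organoids, while in the on state 3 were higher and 2 lower. The summed level was 911.5 and 861.3 CPM in BRAF off, 780.5 and 861.5 in BRAF on, 398.3 and 460.5 in BRAFp53 off and 1159 and 1188 in BRAFp53 on, and the SI p53 organoids, another culture, measured 329.4 and 344.7 off and 407 and 369.8 on. The BRAF culture thus stood above both others in the off state. More of the on-state sum was Pnliprp2 than any other member, at 393.1 and 495.5 CPM in BRAF on and 523.8 and 648.9 in BRAFp53 on, with an interaction of -0.59 that was not called (adjusted p = 0.17). The count was 8 without BRAF off replicate 1, 8 without BRAFp53 off replicate 1, and 8 higher and 1 lower without BRAFp53 on replicate 1.

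Defa30 (chromosome 8, 21134642 to 21135598), an antimicrobial α-defensin, measured 92.27 and 74.15 CPM in BRAF off, 16.99 and 16.13 in BRAF on, 17.43 and 19.66 in BRAFp53 off and 24.42 and 21.02 in BRAFp53 on. The BRAF off libraries stood above the other 6, which lay within a narrow range. The interaction was 2.62 (SE 0.228, adjusted p = 3.75e-05) and the off-state difference -2.16. Defa24 fell from 185.9 and 169 to 74.62 and 73.09 CPM in BRAF and rose from 55.25 and 63.25 to 179.8 and 114.6 in BRAFp53 (interaction 2.58, SE 0.239, adjusted p = 5.57e-05). The α-defensins are near-identical copies, so the split of reads among them is uncertain. Itln1, a lectin of Paneth and goblet cells with no such copies among the members, went from 176.4 and 211.2 to 67.21 and 52.19 CPM in BRAF and from 65.45 and 82.98 to 92.51 and 76.73 in BRAFp53 (interaction 1.89, SE 0.234, adjusted p = 0.000458). Lyz1, Paneth lysozyme, went from 138.7 and 127.4 to 52.83 and 36.37 CPM in BRAF and from 64.71 and 89.94 to 69.76 and 47.16 in BRAFp53, and its interaction of 1.17 (SE 0.299, adjusted p = 0.0294) was called under 9 of 16 alternatives.

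The promoters of Defa30 and of Akp3 are shown because Wnt signaling, through TCF factors, is known to drive Paneth genes, and because these genes had large positive interactions with different off-state differences. In the 250 bases before each start (RefSeq, GRCm38.p6), the TCF motif CTTTGAT was searched on both strands and is in capitals, as its complement in Defa30. Defa30 lies at chr8:21134400-21134649 and Akp3 at chr1:87124704-87124953, both on the plus strand, with the first base of the match 142 and 85 bases before the start.
Defa30: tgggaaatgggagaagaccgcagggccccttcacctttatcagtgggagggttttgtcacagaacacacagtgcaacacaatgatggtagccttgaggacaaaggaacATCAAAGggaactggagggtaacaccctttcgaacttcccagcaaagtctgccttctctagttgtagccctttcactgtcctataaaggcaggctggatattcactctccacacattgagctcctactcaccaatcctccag
Akp3: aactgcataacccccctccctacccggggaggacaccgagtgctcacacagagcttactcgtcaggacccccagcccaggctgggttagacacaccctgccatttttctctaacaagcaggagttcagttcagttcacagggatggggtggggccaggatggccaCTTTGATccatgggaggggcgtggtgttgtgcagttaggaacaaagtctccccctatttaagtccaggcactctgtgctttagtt
CTTTGAT was present in 6 of 15 Paneth genes with a promoter sequence (40%), namely Defa20, Defa21, Defa22, Defa23, Defa30 and Mmp7, of which the defensins are related copies. It was present in 3.72% of all genes, in 1 of 37 enterocyte genes (Cubn) and in 2 of 21 stem cell and Wnt genes (Sp5 and Tnfrsf19). A match is a description of the letters and not a measured site.

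Akp3 (chromosome 1, 87124973 to 87127912), an intestinal alkaline phosphatase, was among the few genes that rose further with p53R172H. It measured 10.62 and 10.71 CPM in BRAF off, 41.71 and 75.23 in BRAF on, 68.95 and 67.77 in BRAFp53 off and 1822 and 2492 in BRAFp53 on. The BRAFp53 on libraries stood above all others, and the BRAFp53 off libraries were at the level of BRAF on. The rise was 5.47-fold in the BRAF and 31.6-fold in the BRAFp53 arm, an interaction of 2.53 (SE 0.361, adjusted p = 0.00106) that was 2.16 without BRAF on replicate 1, beside an off-state difference of 2.68. Car2, a carbonic anhydrase, showed a like order of groups, at 0.3584 and 0.4699 CPM in BRAF off, 2.003 and 0.9033 in BRAF on, 4.92 and 4.805 in BRAFp53 off and 66.36 and 61.25 in BRAFp53 on, with an interaction of 1.89 (adjusted p = 0.031) called under 8 of 16 alternatives. Hepacam2, an adhesion protein of the immunoglobulin family, fell from 15.6 and 15.44 to 8.654 and 6.556 CPM in BRAF and rose from 10.85 and 10.46 to 16.97 and 18.42 in BRAFp53 (interaction 1.76, SE 0.247, adjusted p = 0.000953). For Ankrd22 and Rasa4, both with an antisense gene over them, the off libraries carried the difference: Ankrd22 measured 6.071 and 7.875 CPM in BRAF off against 1.38 and 2.224 in BRAFp53 off (interaction 1.62, adjusted p = 0.0131), and Rasa4 23.55 and 25.1 against 12.53 and 8.773 (interaction 1.53, adjusted p = 0.0115).

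Part of the goblet cell genes had a higher response in BRAFp53 organoids, with 45.5% called in either direction beside 8.20% of all genes. Of 22 tested goblet and mucin genes the interaction called 9 higher and 1 lower (Muc13, a membrane mucin), with a median of 0.96, and 8 higher and 2 lower without BRAF on replicate 1. Both arms had more risers than fallers, with 8 rising and 1 falling in the BRAF and 14 rising and 0 falling in the BRAFp53 arm. Over all genes this also held, at 17.5% against 14.2% in the BRAF and 6.98% against 4.53% in the BRAFp53 arm. Of the 22 genes 8 were lower in BRAFp53 off than in BRAF off. Spdef, a transcription factor of goblet maturation, measured 6.429 and 5.38 CPM in BRAF off, 5.87 and 6.014 in BRAF on, 3.77 and 4.84 in BRAFp53 off and 12.83 and 15.5 in BRAFp53 on, so that the BRAFp53 on libraries stood above the rest (interaction 1.71, SE 0.284, adjusted p = 0.00289). Agr2, a chaperone of mucin folding, went from 191 and 180.3 to 475 and 355.3 CPM in BRAF and from 107.6 and 121.9 to 635.4 and 619 in BRAFp53 (interaction 1.29, SE 0.195, adjusted p = 0.00158). Tff3, a secreted trefoil peptide, differed by 0.96 (adjusted p = 0.00318), while Muc2, the main secreted mucin, had an interaction of 1.07 that was not called (adjusted p = 0.144). The 9 higher calls became 4 without BRAF off replicate 2, 4 without BRAFp53 off replicate 1 and 5 without BRAFp53 on replicate 2.

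Some genes of the stem cell program and the Wnt pathway, 28.6% of those tested, were called with a higher response with p53R172H, beside 1.93% of all genes. Of 28 tested genes the interaction called 8 higher and 0 lower (median 0.91), and without BRAF on replicate 1 it called 18 higher and 0 lower (median 1.17). In the BRAF arm 19 were called falling and 0 rising, and in the BRAFp53 arm 2 falling and 1 rising. Of all genes 14.2% were called falling in the BRAF arm and 4.53% in the BRAFp53 arm. In the off state 2 were lower and 0 higher in BRAFp53 organoids, and in the on state 13 were higher and 1 lower. The summed level went from 1190 and 1247 to 702.7 and 452.9 CPM in BRAF and from 996.7 and 1255 to 896.6 and 822.4 in BRAFp53. The count of 8 was 14 with DESeq2, 15 without a filter and 12 with at least 10 counts in every library, and became 0 without BRAFp53 off replicate 1, 2 without BRAF off replicate 2, 4 without BRAFp53 on replicate 1, and 5 without BRAF on replicate 2 or BRAFp53 on replicate 2.

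Sox9, a Wnt-responsive transcription factor of the crypt, measured 42.1 and 45.53 CPM in BRAF off, 18.97 and 12.59 in BRAF on, 26.71 and 34.15 in BRAFp53 off and 28.45 and 24.45 in BRAFp53 on. Its BRAF on libraries lay below all others (interaction 1.27, SE 0.257, adjusted p = 0.00904, 1.59 without BRAF on replicate 1). Smoc2, a matrix protein enriched in stem cells, went from 103.3 and 110.5 to 43.49 and 25.71 CPM in BRAF and from 89.94 and 94.39 to 68.78 and 86.43 in BRAFp53 (interaction 1.38, SE 0.29, adjusted p = 0.0111). Lgr5 (chromosome 10, 115450311 to 115587780), the R-spondin receptor that marks stem cells, went from 15.89 and 19.91 to 4.567 and 2.245 CPM in BRAF and from 25.64 and 27.9 to 18.39 and 12.51 in BRAFp53. The BRAF on libraries were the lowest, and the interaction of 1.58 (SE 0.402, adjusted p = 0.0285) was called under 10 of 16 alternatives and was 2.19 without BRAF on replicate 1. Wnt3, the Wnt ligand of Paneth cells, went from 3.162 and 4.683 to 1.242 and 0.2839 CPM in BRAF and from 2.212 and 1.762 to 3.47 and 2.481 in BRAFp53 (interaction 2.91, SE 0.721, adjusted p = 0.0254, called under 12 of 16 alternatives).

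The stem cell marker Olfm4 turned on BRAF on replicate 1. It measured 193.8 and 211.5 CPM in BRAF off, 78.65 and 9.085 in BRAF on, 142.6 and 235.1 in BRAFp53 off and 114.3 and 72.42 in BRAFp53 on, and the first BRAF on library overlapped the BRAFp53 on range. The interaction was 1.18 (adjusted p = 0.438) with all libraries and 3.46 (adjusted p = 0.000151) without that library, with adjusted p from 9.3e-09 to 0.713 over the alternatives. Ascl2, a Wnt-driven stem cell regulator, changed call too, from 1.54 (adjusted p = 0.0634) to 2.13 (adjusted p = 0.0146), with 3.11e-05 to 0.256 over the alternatives.

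**Figure D3:**
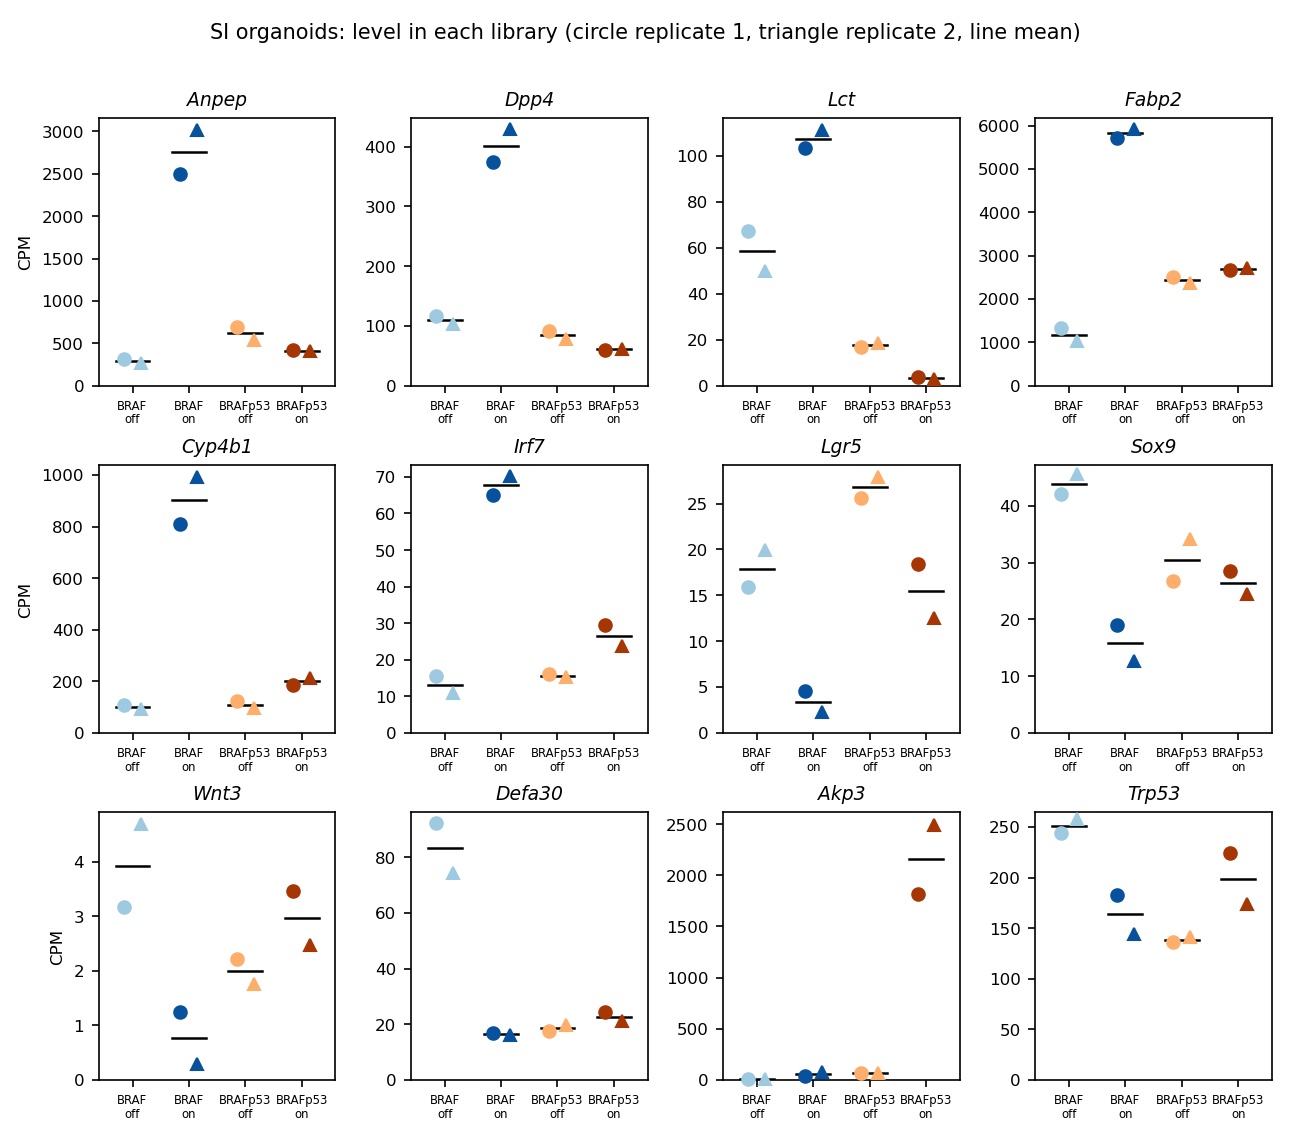
Levels (CPM) of Anpep, Dpp4, Lct, Fabp2, Cyp4b1, Irf7, Lgr5, Sox9, Wnt3, Defa30, Akp3 and Trp53 in the 8 SI libraries, with a circle for replicate 1, a triangle for replicate 2 and a line at each group mean. Anpep is high in BRAF on alone (2501 and 3021 CPM), Defa30 in BRAF off alone (92.27 and 74.15 CPM) and Akp3 in BRAFp53 on alone (1822 and 2492 CPM).

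Proliferation genes had 1 call in the interaction with all libraries, and more under some alternatives. Of 40 DNA replication genes the interaction called 1 higher (Dut, which clears dUTP, 0.89, adjusted p = 0.0444) with a median of 0.53, and of 40 mitosis genes edgeR called 0 with a median of 0.46 (13 at an unadjusted p under 0.05, 6 by DESeq2 and 0 by limma-voom), against 0.0291 over all genes. Without a filter on low counts 11 replication and 10 mitosis genes were called higher, and DESeq2 called 5 replication genes higher and 1 lower. The BRAF arm called 25 replication and 34 mitosis genes falling and 0 rising, whereas the BRAFp53 arm called 0 and 1 falling. Mki67, a marker of cycling cells, went from 218.4 and 252.1 to 162.3 and 138.9 CPM in BRAF and from 219.7 and 241.6 to 206.3 and 217.4 in BRAFp53 (interaction 0.52, adjusted p = 0.0694), with both BRAF on libraries below the other 6. Mcm2, a subunit of the replicative helicase, measured 54.75 and 27.46 CPM in the BRAF on libraries against 57.84 to 68.66 in the BRAFp53 libraries, so its BRAF on replicates disagreed. Both lists depended on which BRAF on library was kept. The replication and mitosis medians were 0.93 and 0.77 without BRAF on replicate 1, and 0.16 and 0.19 without BRAF on replicate 2. The cause was not tested.

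**Figure D4:**
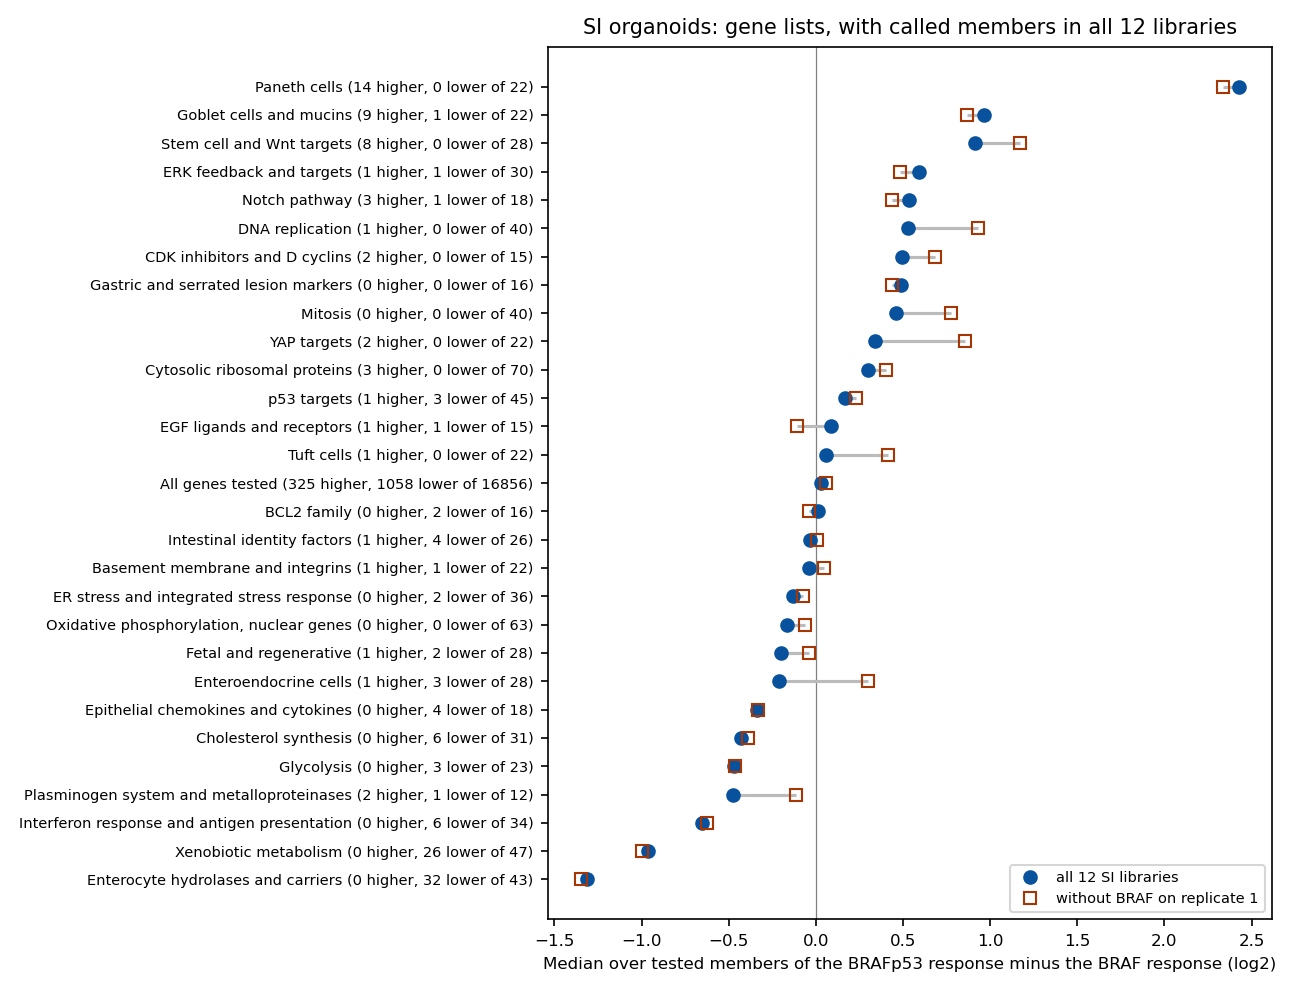
Median interaction (log2, BRAFp53 response minus BRAF response) of each gene list, as a filled point with all libraries and an open square without BRAF on replicate 1, with the numbers called higher and lower of those tested at the side. Enterocyte (-1.31) and xenobiotic genes (-0.96) have the lowest medians of the lists drawn, and Paneth genes (2.43) the highest.

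Genes activated by p53 were called in the interaction at 8.89%, beside 8.20% of all genes. Of 45 tested p53 target genes the interaction called 1 higher and 3 lower (median 0.17), close to the background share of all genes, and 6 higher and 3 lower without BRAF on replicate 1. The 4 calls were 7 with DESeq2, 9 without a filter and 1 with the block within genotype, and became 1 or 2 when any other of the 8 libraries was left out. Cdkn1a (p21, chromosome 17, 29090976 to 29100727), the cell cycle inhibitor downstream of p53, rose in both cultures, from 189.1 and 198.8 to 546.5 and 674.8 CPM in BRAF and from 194.8 and 160.0 to 369.2 and 399.9 in BRAFp53. The on libraries did not overlap and differed by -0.67 (adjusted p = 0.00425). The interaction was -0.54 (SE 0.19, adjusted p = 0.106) and was called without BRAF on replicate 1 (-0.69, adjusted p = 0.0313), with adjusted p from 0.0313 to 0.367 over the alternatives, and Cdkn1a overlaps an antisense gene. Mdm2, the ubiquitin ligase that restrains p53, had an interaction of 0.14 (adjusted p = 0.71) and Bax, a death effector, one of 0.21, and neither was called. The called members were Dgka, a lipid kinase, which rose from 25.76 and 22.36 to 68.15 and 87.44 CPM in BRAF but measured 24.58 and 20.8 CPM in BRAFp53 off and 28.01 and 32.5 in BRAFp53 on (interaction -1.28, SE 0.217, adjusted p = 0.00323), the death receptor Fas (-0.98, adjusted p = 0.0428, 7 of 16 alternatives), the DNA repair enzyme Mgmt (1.14, adjusted p = 0.042, 6 of 16 alternatives) and the peptide transporter Tap1 (-0.89, adjusted p = 0.0409, 7 of 16 alternatives).

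More ERK target genes rose than fell in both cultures, as was the case over all genes. Of all genes 17.5% were called rising and 14.2% falling in the BRAF arm, and 6.98% and 4.53% in the BRAFp53 arm. Of 30 ERK feedback and target genes the interaction called 1 higher and 1 lower (median 0.59), or 6.67% beside 8.20% of all genes. They became 5 higher and 1 lower with DESeq2, 2 and 1 with limma-voom, and 6 and 1 without a filter on low counts. The median interaction was 0.48 without BRAF on replicate 1 and ranged from 0.37 to 0.64 over single left-out libraries. The BRAF arm called 12 rising and 5 falling and the BRAFp53 arm 18 rising and 0 falling. The lower gene was Dusp6 (chromosome 10, 99263231 to 99267489), an ERK phosphatase, at 7.167 and 9.106 CPM in BRAF off, 65.89 and 73.81 in BRAF on, 22.65 and 24.2 in BRAFp53 off and 81.33 and 93.78 in BRAFp53 on. Its BRAFp53 libraries lay above the BRAF ones in both states, and the interaction of -1.20 (SE 0.236, adjusted p = 0.00775) went with an off-state difference of 1.52. The higher gene was Ccnd1 (cyclin D1), which fell from 43.3 and 46.28 to 33.21 and 24 CPM in BRAF and measured 26.85 and 31.04 CPM in BRAFp53 off and 38.08 and 34.66 in BRAFp53 on (interaction 0.97, adjusted p = 0.0131). Spry4 (1.15, adjusted p = 0.219) and Dusp4 (0.93, adjusted p = 0.134) were not called. Cdkn2b, an inhibitor of cyclin D kinases, went from 48.21 and 39.28 to 113.3 and 180.3 CPM in BRAF and from 40.79 and 30.31 to 69.93 and 65.83 in BRAFp53, with an interaction of -0.81 (adjusted p = 0.121) that was called without BRAF on replicate 1 (-1.12, adjusted p = 0.0142, with 0.00199 to 0.434 over the alternatives).

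Fetal and gastric programs, which are known from serrated lesions, had calls in the interaction at 10.7% and 0% of tested members, beside 8.20% of all genes. Of 28 tested fetal and regenerative genes the BRAF arm called 22 rising and the BRAFp53 arm 19 (medians 3.06 and 2.62), and the interaction called 1 higher and 2 lower (median -0.20). With DESeq2 these were 1 and 4, with limma-voom 1 and 1, and without a filter on low counts 4 and 3. The median interaction was -0.04 without BRAF on replicate 1 and ranged from -0.30 to 0.19 over single left-out libraries. Of 16 tested gastric and serrated markers edgeR called 0 in the interaction (2 at an unadjusted p under 0.05, 0 by DESeq2 or limma-voom), and 1 higher without BRAF on replicate 1. Sprr1a, a cornified envelope protein of the fetal list, was the higher one, at 53.17 and 76.5 CPM in BRAF on and 128.9 and 99.66 in BRAFp53 on after 2.794 to 6.676 CPM off (1.58, adjusted p = 0.042), and was not called without BRAF on replicate 1 (1.33, adjusted p = 0.0755, with 1.04e-09 to 0.139 over the alternatives). Nid1, a basement membrane protein that overlaps an antisense gene (-2.44, adjusted p = 0.00235), and Anxa3, an annexin (-1.25, adjusted p = 0.0348, 7 of 16 alternatives), were the lower ones. Ctse, a gastric protease, was at 0 counts in all off libraries and at 1 and 0 counts in BRAF on, but at 164 and 88 counts (2.979 and 1.34 CPM) in BRAFp53 on. Vsig1, a gastric adhesion protein, was at 0 counts in all 6 other libraries and at 48 and 50 counts in BRAFp53 on (0.872 and 0.7611 CPM). No interaction can be estimated for either, since 3 of 4 groups lay at or under the floor.

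The cultures already differed before recombination. In the off state 1177 genes were called (6.98%), 726 higher (4.31%) and 451 lower (2.68%) in BRAFp53 than in BRAF organoids, and in the on state 2817 (16.7%), 1126 higher (6.68%) and 1691 lower (10%). The on-state count was 1395 without BRAF on replicate 2, 1478 without BRAFp53 on replicate 1 and 1682 without BRAFp53 on replicate 2. The 4 libraries of a state did not overlap between the cultures for 50% of genes in the off state and 54.7% in the on state, so a lack of overlap is common here. The off-state count was 567 without BRAFp53 off replicate 1, 581 without BRAF off replicate 2, 742 without BRAF off replicate 1 and 771 without BRAFp53 off replicate 2. Of the 43 enterocyte genes 17 were higher and 5 lower in BRAFp53 off, of the 47 xenobiotic genes 17 were higher and 2 lower, and of the 23 glycolytic genes 12 were higher and 0 lower. In the on state the same enterocyte list had 4 higher and 32 lower and the xenobiotic list 7 higher and 24 lower. Of the 1058 genes with a lower response 308 were called in the off state in the opposite direction and 760 in the on state in the same direction, and of the 325 with a higher response these were 89 and 197. Without BRAF on replicate 1 they were 330 and 868 of 1194 genes with a lower response and 108 and 774 of 934 with a higher one.

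Among single genes with large off-state differences, several were at or near 0 in 1 of the cultures. Osr2, a zinc finger factor, measured 91.97 and 86.48 CPM in BRAF off and 75.76 and 88.96 in BRAF on but 1 count in each BRAFp53 off library. Y-linked transcripts (Ddx3y, Eif2s3y, Kdm5d, Uty) were present in the BRAF culture and at 0 to 4 counts in the BRAFp53 libraries. With the Xist levels above, the BRAF culture had the markers of a male donor and the BRAFp53 culture those of a female one. Sex therefore cannot be told apart from p53R172H in differences between the cultures. Slc5a8, a carrier of short-chain fatty acids, measured 18.13 and 10.31 CPM in BRAF off and 0 in both BRAFp53 off libraries. Slc10a2, the ileal bile acid carrier, rose in the BRAF culture from 1.771 and 0.3565 to 32.97 and 62.3 CPM and measured 1 and 0 counts in BRAFp53 off and 0.69 and 1.096 CPM in BRAFp53 on. Higher in BRAFp53 off were Mmp14, a matrix metalloproteinase, at 9.345 and 11.99 CPM against 3 and 4 counts in BRAF off, Cfhr2, a complement factor H relative, at 206.5 and 235.2 against 4.806 and 3.176 CPM, and the P450 Cyp4a10 at 26.97 and 13.22 against 0.3373 and 0.4051 CPM. Reg1 measured 6277 and 5841 CPM in BRAFp53 off against 24.35 and 16.46 in BRAF off.

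Fewer genes were called once the response to p53R172H alone was subtracted, a step that adds the spread of the SI p53 libraries to the test. The lower count therefore does not measure what p53R172H alone contributed. In SI p53 organoids, with the p53R172H allele but without Braf floxV600E, edgeR called 0 of 16856 genes between on and off, with 873 at an unadjusted p under 0.05, and other tools were not run on that contrast. With this response subtracted, the interaction called 824 genes (4.89%), 178 higher (1.06%) and 646 lower (3.83%), and 1363 without BRAF on replicate 1. Akp3 (2.59, SE 0.438, adjusted p = 0.00522), Fabp6 (adjusted p = 0.00185) and Npl (-4.81, SE 0.469, adjusted p = 0.000147) were again called. The count was also 403 without BRAF off replicate 2, 408 without BRAFp53 off replicate 1 and 479 without BRAFp53 on replicate 2.

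In colonic (COL) organoids of the same alleles, recombined with 3.5 µM 4-hydroxytamoxifen and collected on day 3, the corresponding interaction was subtracted from the SI one. Dose and day differed between the tissues, so tissue cannot be told apart from them. The SI interaction differed from the colonic one in 1353 of 19673 genes (6.88%), 469 higher (2.38%) and 884 lower (4.49%), and in 1172 without BRAF on replicate 1 of the SI. Among the enterocyte genes 10 of 43 were lower and 0 higher, among the xenobiotic genes 13 of 47 lower and 0 higher, among the Paneth genes 8 of 22 higher and 0 lower, and among glycolytic genes 11 of 24 lower and 0 higher. Anpep differed by -3.10 (adjusted p = 0.000944), Ldha by -1.30 (SE 0.231, adjusted p = 0.0045), Sox9 by 1.84 (SE 0.361, adjusted p = 0.00621) and Defa30 by 3.21 (SE 0.675, adjusted p = 0.0095). Trp53 differed by -0.24 (adjusted p = 0.708), so that its opposite responses in the arms were not shown to differ between the tissues.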

How the data were processed

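RNA was sequenced as paired-end reads. Per the methods and labels, the authors trimmed reads with Trimmomatic 0.36 and aligned and counted them per gene with STAR 2.5.2b on mm10 (the labels also list mm9), and deposited raw counts per gene and library. Those counts were fitted here in R 4.3.3 with edgeR 4.0.16 (TMM, filterByExpr, quasi-likelihood test, 1 mean per group) over the 12 SI libraries, p53 organoids included so that all groups share an estimate of the spread, and p-values were adjusted by Benjamini-Hochberg. The tissue contrast was fitted over SI and colon libraries together. Levels are CPM from those counts, and 0 columns were left out. Alternatives were DESeq2 1.42.0, limma-voom 3.58.1, RLE scaling, other filters, replicate blocks, the 8 BRAF and BRAFp53 libraries alone, and each of those 8 left out in turn (for the tissue contrast, BRAF on replicate 1 alone). Gene coordinates come from GENCODE M21 (GRCm38): 45143 of 45706 IDs matched, 563 did not, and strandedness is not given in the sources used here.

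The members and the 31 gene lists were chosen with earlier results of these data known. Named genes were, per direction, the 12 with the largest interaction among called genes with an average log2 CPM of at least 3, arms that did not overlap and no predicted-gene symbol, for each list the first 3 members and up to 4 further called ones, 5 per direction of the off-state difference, and 3 per direction of the p53-corrected and tissue contrasts. Others (Dpp4, Fabp2, Apoa1, Abcg5, Abcg8, Cps1, Pnliprp2, Agr2, Muc13, Nr1i2, Nr1i3, Bax, Vdr, Gata4, Lyve1, Itgam, Uty, G0s2, Cmtm7 and Gm4788) were chosen after their values were seen. Deviations of same-numbered libraries correlated at 0.0573 between off and on in BRAF, 0.00603 in BRAFp53 and -0.0392 in p53, and between the cultures at 0.00893 off and 0.123 on. Not every pair exceeded 0.1, so replicate numbers were not treated as pairs.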

Additional observations from a re-analysis of the deposited data

Results flagged for a closer look

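The responses of the BRAF and BRAFp53 cultures to recombination differed by the edgeR interaction test in 1383 genes, the count described above. With the response of SI p53 organoids subtracted they differed in 824 genes. The SI and colonic interactions differed in 1353 genes.

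Named by rule in the tissue contrast (SI interaction minus COL interaction, edgeR) were 6 genes. Those higher in the SI were Slc4a11, a membrane transporter (6.52, SE 1.55, adjusted p = 0.0178), Myof, a membrane repair protein (4.89, SE 1.16, adjusted p = 0.0179) and Dpysl3, a cytoskeletal regulator (4.05, SE 0.909, adjusted p = 0.0135). Their SI levels were low: Slc4a11 was at 0 to 0.9894 CPM, Myof at 0.0177 to 0.5268 CPM and Dpysl3 at 0.0354 to 3.226 CPM over the 8 libraries, against 3.532 to 62.23, 16.37 to 94.05 and 19.17 to 176.7 CPM in the colon. The BRAFp53 off libraries held 0 to 2 counts of each.

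Lower in the SI were Hao2, an oxidase of 2-hydroxy acids (-10.61, SE 2.42, adjusted p = 0.0152), the positional gene Hoxa7 (-9.36, SE 2.2, adjusted p = 0.0179) and the P450 Cyp2c70 (-7.56, SE 1.53, adjusted p = 0.00819). Hoxa7 was at 0 counts in both BRAF off libraries, at 81 and 2 counts in BRAF on and at 3.303 to 8.435 CPM in the BRAFp53 libraries. Hao2 was at 0 counts in both BRAF off libraries and in the second library of each on group. Cyp2c70 was at 0 in both colonic BRAFp53 off libraries and at 2.839 to 31.49 CPM in the SI. For genes with a group at or under 3 counts the fitted value depends on the prior count and is no bound.

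Named by rule after subtraction of the p53 response (edgeR) were Akp3 (2.59, SE 0.438, adjusted p = 0.00522), Hist1h2ae (6.38, SE 1.21, adjusted p = 0.00939), Cox5a (3.61, SE 0.854, adjusted p = 0.0288), Reg1 (-7.64, SE 1.76, adjusted p = 0.0256), Fabp6 (-7.22, SE 1.02, adjusted p = 0.00185) and Npl (-4.81, SE 0.469, adjusted p = 0.000147). The BRAFp53 on replicates disagreed for the histone gene Hist1h2ae, at 1.599 and 17.15 CPM, and for the respiratory chain subunit Cox5a, at 13.53 and 59.9 CPM. Reg1 had an interaction of -7.62 (adjusted p = 0.00837) that was -2.52 without BRAF on replicate 1.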

How the results depend on the processing

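When single libraries were left out, the count of called genes ranged for the interaction from 597 to 2128, for the off-state difference from 567 to 1451, the on-state difference from 1395 to 3515, the BRAF response from 3573 to 5343, the BRAFp53 response from 887 to 2279 and the p53-corrected interaction from 403 to 1363. Requiring an absolute log2 difference of at least 1 left 715, 590, 1037, 2011 and 830 of the first 5. DESeq2 called 2108 interaction genes, 1647 after p53 correction and 2371 between tissues, and the fit without a filter 1799 off-state and 1520 p53-corrected genes. The share of higher calls in the interaction, 23.5% in the fit described, was 35% without a filter and 43.9% without BRAF on replicate 1, which also moved the on-state share from 40% to 51.4% and the p53-corrected share from 21.6% to 37.3%. Replicate numbers did not pair the libraries, and the replicate block within genotype gave 1082 interaction genes and that across genotypes 1322, with 1035 and 1154 off-state, 2484 and 2751 on-state, 5003 and 5294 BRAF, 1657 and 1879 BRAFp53, 632 and 767 p53-corrected and 996 tissue calls (within genotype). Without BRAF on replicate 1 the negative interaction of Xist and interaction of Cfhr2 turned to 0.55 (adjusted p = 0.693) and 2.26 (adjusted p = 0.00268), the upper ends of ranges over single left-out libraries that began at -5.63 and -3.38. Of 105 named genes with a called interaction, 104 kept direction and call without a filter, 102 with DESeq2, 93 with limma-voom and 85 with the block within genotype, and leaving out single libraries kept 50 (without BRAFp53 off replicate 1) to 98 (without BRAF on replicate 1, where Xist reversed). The cause was not tested. At 44350747 to 65613832 counts, genes under 3 counts per group carry no usable fold.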

Other observations

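Transcription factors of intestinal identity split, with 19.2% called in the interaction beside 8.20% of all genes. Of 26 tested, the interaction called 4 lower and 1 higher (median -0.04), or 5 lower and 4 higher without BRAF on replicate 1 and 3 lower and 0 higher without BRAF off replicate 2 or BRAFp53 off replicate 1. Creb3l3, a membrane-bound factor of lipid metabolism, went from 216.1 and 205.5 to 675.8 and 821.4 CPM in BRAF and from 376.5 and 305.0 to 457.8 and 523.8 in BRAFp53 (-1.30, SE 0.194, edgeR adjusted p = 0.00143). Hnf4g, an enterocyte nuclear receptor, went from 126.6 and 98.44 to 200.1 and 204.8 CPM in BRAF, and from 200.9 and 166.7 to 149.4 and 145.9 in BRAFp53 (-1.16, SE 0.249, adjusted p = 0.0119), so that its order between the cultures turned from off to on. Maf (-1.90, adjusted p = 0.00344) and the vitamin D receptor Vdr (-0.93, adjusted p = 0.00158) were the other lower ones, and Foxa3, a factor of secretory cells, the higher one (1.0, adjusted p = 0.0266, called under 10 of 16 alternatives), with 11.76 and 10.22 CPM in BRAF on and 17.57 to 22.08 CPM in the other 6 libraries.

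Among hormone and Notch genes single members were called. In the Notch list they were 22.2% of those tested, beside 8.20% of all genes. Of 28 tested enteroendocrine genes 1 was called higher and 3 lower (14.3%, beside 8.20% of all genes), or 3 higher and 2 lower without BRAF on replicate 1. These became 1 and 1 without BRAF off replicate 2, 0 and 1 without BRAFp53 on replicate 2, and 0 and 2 without either BRAFp53 off library. Ghrl (ghrelin), which overlaps an antisense gene, measured 3.942 and 2.738 CPM in BRAF off, 4.868 and 3.923 in BRAF on, 7.557 and 6.905 in BRAFp53 off and 25.23 and 25.3 in BRAFp53 on (1.40, adjusted p = 0.0208). Sct (secretin) rose in both cultures, from 4.258 and 3.095 to 25.62 and 24.7 CPM in BRAF and from 4.018 and 5.09 to 14.1 and 12.12 in BRAFp53 (-1.25, adjusted p = 0.019). Of 18 Notch genes 3 were called higher and 1 lower, or 4 and 1 without BRAF on replicate 1, 1 and 0 without BRAF on replicate 2 or BRAFp53 on replicate 2, and 0 and 0 by edgeR without BRAF off replicate 2 or BRAFp53 off replicate 1. Hes1, the Notch effector, fell from 35.84 and 35.65 to 17.59 and 14.66 CPM in BRAF and measured 27.04 and 30.72 off and 23.36 and 24.13 on in BRAFp53 (0.86, adjusted p = 0.0146), and the secretory lineage factor Atoh1 differed in the same direction (2.12, adjusted p = 0.0434, called under 6 of 16 alternatives).

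Of 18 tested epithelial chemokines and cytokines 4 were called lower and 0 higher (4 lower and 2 higher without BRAF on replicate 1, 2 lower and 1 higher without BRAF on replicate 2, 2 lower without BRAF off replicate 1 or BRAFp53 off replicate 2, and 1 lower without BRAF off replicate 2 or BRAFp53 off replicate 1), among them Il18 (-1.25, adjusted p = 0.00491) and Nos2 (-2.01, adjusted p = 0.0251). Of 70 cytosolic ribosomal protein genes the BRAF arm called 67 falling and the BRAFp53 arm 14, and the interaction called 3 higher (4.29% of the list, beside 8.20% of all genes, with a median of 0.30), 12 without BRAF on replicate 1 and 0 or 1 without any other of the 8 libraries. Of 63 nuclear genes of oxidative phosphorylation edgeR called 0 in the interaction (median -0.17), with 12 at an unadjusted p under 0.05, 4 called by DESeq2, 0 by limma-voom and 0 without BRAF on replicate 1, while the tissue contrast called 21 lower. Of 22 tested tuft cell genes the interaction called 1 higher and 0 lower (4.55%, median 0.06), with 3 higher by DESeq2 and 0 by limma-voom. The 1 called gene was Spib, a factor of tuft and M cells (edgeR adjusted p = 0.00988). It held 2 and 0 counts in BRAF on against 33 to 83 counts in the other 6 libraries. The chemokine and cytokine calls above were 22.2% of those tested, beside 8.20% of all genes.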
